A study of Mus musculus with 6 samples.

Results

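The genes described here encode chromatin remodelling ATPases, their partner subunits and bromodomain proteins, and they were measured in the mouse cortex 2 weeks after 1 injection of resveratrol, a plant polyphenol, or of vehicle. Members were the rows whose gene symbol begins with Chd and a digit, Smarc, Arid and a digit, Ino80, or Brd and a digit. This rule took 47 of the 13582 rows of the deposited table, of which 44 are protein-coding genes, and all 47 passed the filter on low values (a mean of at least 0.5 FPKM). The other 3 were the pseudogene Smarca5-ps and the noncoding RNAs Ino80dos and Chd3os. All mice were C57BL/6, were 10 weeks old when sacrificed, and gave total RNA from the right cortex. Resveratrol went to 3 mice as a single intraperitoneal injection of 10 mg/kg, and vehicle to 3 mice by the same route, with 10 mg/kg given as its dose in the labels too. The labels mention no ischemic insult for any mouse. The question of the series is what the cortex expresses in the late window of ischemic tolerance after resveratrol preconditioning.

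Remodelling ATPases of the SNF2 superfamily use ATP to slide, evict or exchange nucleosomes, and so set which DNA is open to transcription. They work as the motors of large complexes. BAF (the mammalian SWI/SNF complex) is built on Smarca2 or Smarca4, ISWI complexes on Smarca1 or Smarca5, the histone deacetylase complex NuRD on Chd3, Chd4 or Chd5, and the INO80 complex on Ino80. Bromodomains are small modules that bind acetylated lysines on histones, and BET proteins such as Brd2 and Brd3 use them to bring transcription elongation factors to active genes. Neurons exchange several BAF subunits for neuronal versions as they leave the cell cycle, and mutations in many of these genes cause neurodevelopmental disorders in humans.

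The libraries carried the markers of cortex. The summed FPKM of 6 cortical excitatory neuron markers, Slc17a7, Cux2, Fezf2, Tbr1 and Neurod6 among them, lay between 314 and 333 in resveratrol and between 276 and 351 in vehicle. Summed striatal markers lay between 146 and 311 in resveratrol and between 168 and 433 in vehicle (0 of 6 genes higher in resveratrol). The sums of choroid plexus markers lay between 46.9 and 454 in resveratrol and between 15.6 and 112 in vehicle. Of these 6 choroid plexus genes 5 were higher in resveratrol and 0 lower, and the other had no fold change from the test. All 5 ependymal markers had lower fitted means in resveratrol, with sums of 8.12 to 9.34 in resveratrol and 12.2 to 13.3 in vehicle. The sums of 5 oligodendrocyte markers did not overlap either, at 1075 to 1275 in resveratrol and 1285 to 1362 in vehicle, with 4 of 5 genes lower in resveratrol. In none of the 10 marker lists, which also covered glia, vessels and blood, did a gene pass the test, and no value of a marker stood at the floor of the table. The part of these differences in the results below was not tested. In bulk tissue, fewer cells of a type and less RNA per cell cannot be told apart. The first principal component, with 43.2% of the variance, put vehicle 1 (16.4) and vehicle 2 (25.8) on the far side from vehicle 3 (-18.8), with resveratrol 1, 2 and 3 at -9.63, -1.41 and -12.3. Depth is unknown, since the table holds no counts.

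All 47 members had values above the floor of the table in every library. Mean levels over the 6 libraries lay between 1.24 FPKM for Arid5a and 71.4 FPKM for Chd3os, with a median of 14.5 FPKM, against a median of 10.2 FPKM over all genes tested. FPKM is scaled to transcript length, so levels can be set roughly side by side between genes. Differences between libraries still moved with length, as described below. Among the coding members Chd3 (69.7 FPKM), Smarca2 (66.0), Smarcc2 (58.6), Smarca5 (40.2), Smarca1 (38.9), Chd4 (38.9) and Brd2 (35.3) stood highest. At the low end were Arid5a, Arid3a (1.47), Arid3b (1.79) and Chd7 (1.83), a remodeller best known from neural crest and progenitor cells.

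**Figure D1:**
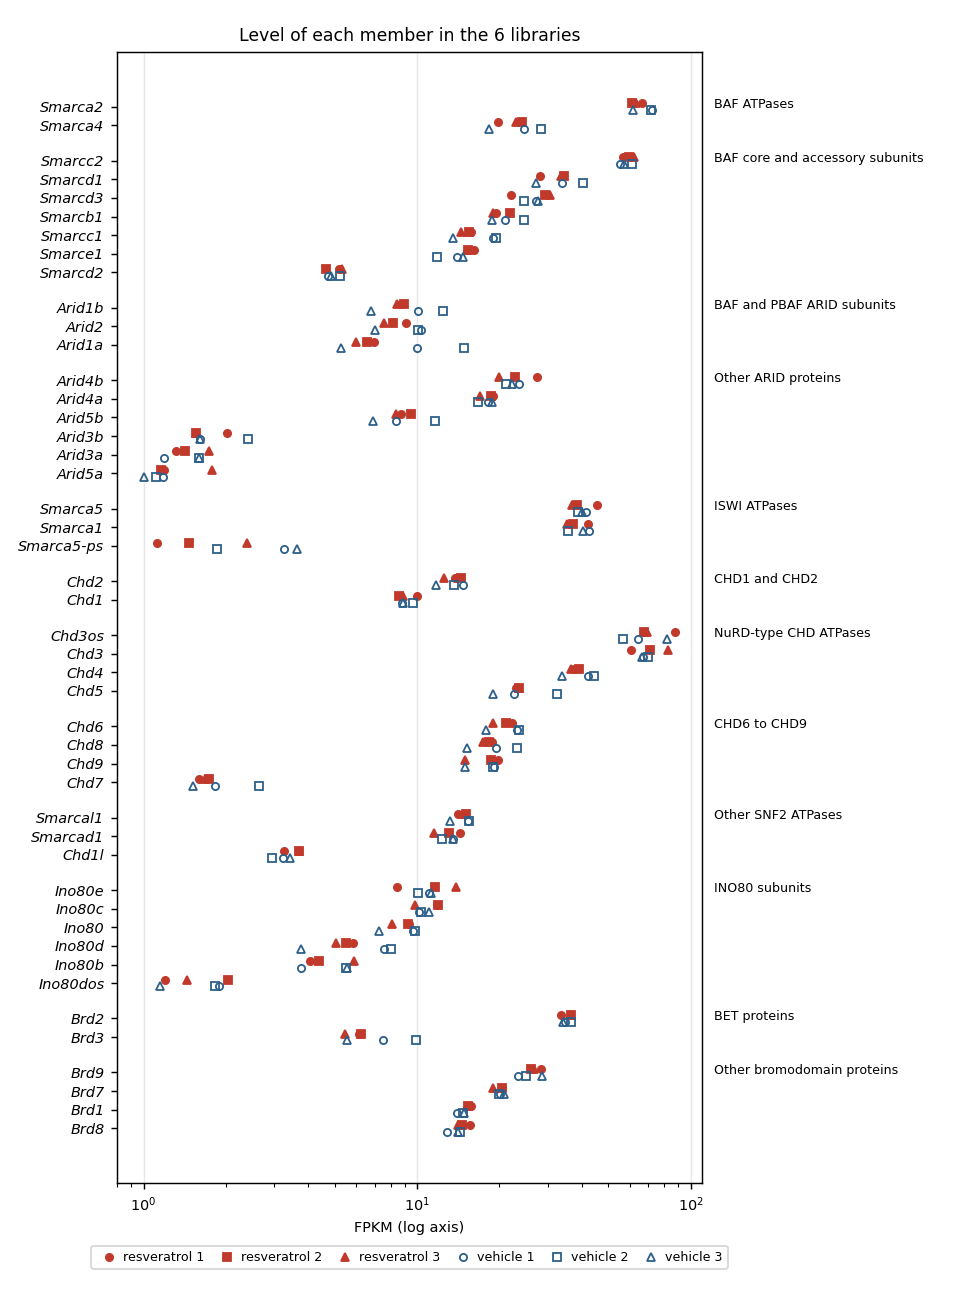
FPKM of 46 of the 47 members on a log axis, in 12 groups by role, with filled symbols for the 3 resveratrol libraries and open symbols for the 3 vehicle libraries. Chd3, Smarca2 and Smarcc2 lie near the top of the range in all 6 libraries, and the open symbols of Arid1a, Ino80d and Brd3 spread more widely than the filled ones.

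Some related subunits kept their order in all 6 libraries and others did not. Smarca2 exceeded its alternative Smarca4 in the BAF complex by 3.37, 2.52 and 2.75 times in resveratrol 1, 2 and 3 and by 2.93, 2.52 and 3.38 times in vehicle 1, 2 and 3. The scaffold subunit Smarcc2, which is favoured in neurons, exceeded Smarcc1 by 2.90 to 4.26 times over the 6 libraries. Actl6b, the neuronal actin-like subunit of BAF and a partner rather than a member, exceeded Actl6a, its counterpart in progenitors, by 3.32 to 4.33 times. In each of these 3 pairs the ranges of the groups overlapped. Smarca5 and Smarca1, the ISWI motors, stood at nearly equal levels, with ratios of 0.974 to 1.09. The ratio of Arid1b to Arid1a was 1.26, 1.37 and 1.42 in resveratrol, against 1.01, 0.836 and 1.29 in vehicle, so the order turned in vehicle 2. The ratio of Smarcd1 to Smarcd3 was 1.27, 1.17 and 1.1 in resveratrol, against 1.25, 1.64 and 0.981 in vehicle, and turned in vehicle 3.

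None of the members passed the adjusted threshold between resveratrol and vehicle. Differences were tested with limma on log2(FPKM + 0.5) over 13574 genes, and a gene passed at a Benjamini-Hochberg adjusted p under 0.05. Of the 47 members 0 were called higher and 0 lower, where 0.00737% of all genes tested were called higher and 0% lower. The smallest limma adjusted p of a member was 0.987. At an unadjusted p under 0.05 stood 1 member, Smarca5-ps, or 2.13% of members, against 2.42% of all genes. By direction this was 0 members higher, against 1.64% of all genes, and 1 member lower, against 0.788%. The log2 fold changes of resveratrol over vehicle ranged from -0.67 (Smarca5-ps) to 0.22 (Arid5a), with 23 above 0 and 24 below. Their median was -0.0009, against 0.02 over all genes tested, of which 56.1% lay above 0. In 33 of 47 members (70.2%) the difference was smaller than 0.1 on the log2 scale, against 50.6% of all genes. The median SE was 0.14 for the members and for all genes, so a change of the size seen in most members is within the error of 3 libraries against 3. The split of directions moved with the scaling. It was 17 above 0 and 30 below with median centring and with quantile normalization.

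**Figure D2:**
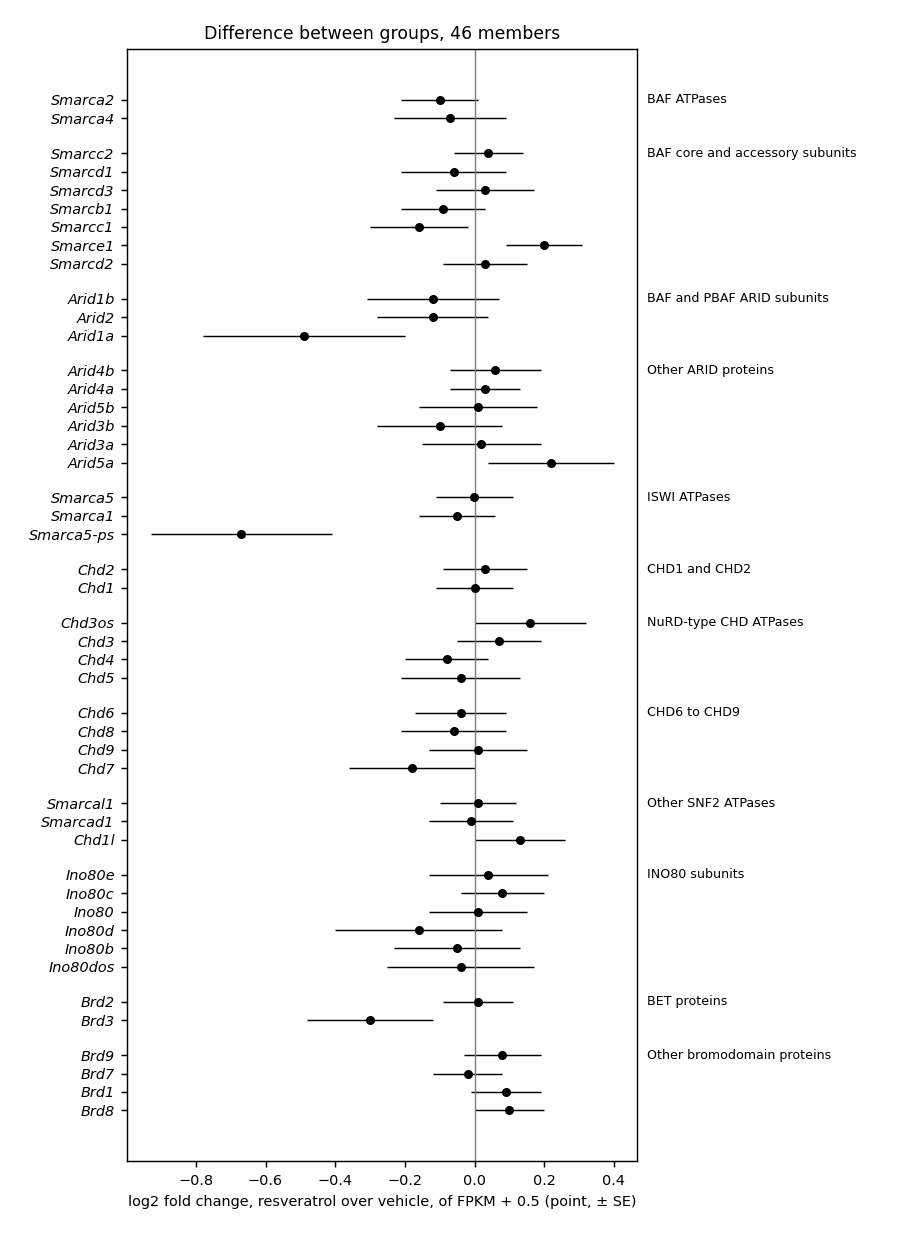
Log2 fold change of resveratrol over vehicle for 46 of the 47 members, in 12 groups by role, with points for the limma estimate on FPKM + 0.5 and bars for its SE. Most points lie within 0.1 of 0, and Smarca5-ps (-0.67), Arid1a (-0.49) and Brd3 (-0.30) lie farthest to the left of those shown.

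Of the BAF subunits among the 47 members, only Smarce1 had groups that did not overlap. Smarce1, the DNA-bending HMG-box subunit of the complex, had 16.1, 15.4 and 15.2 FPKM in resveratrol 1, 2 and 3, against 14, 11.8 and 14.7 FPKM in vehicle 1, 2 and 3. The resveratrol values lay close together and just above vehicle 3. Its mean was 15.6 ± 0.489 FPKM in resveratrol and 13.5 ± 1.48 FPKM in vehicle (SD, n = 3 each), a log2 fold change of 0.20 ± 0.11 (SE; limma adjusted p = 0.987). Of its 50-base words, 15% are shared with another gene. The ATPase Smarca2 had 66.7, 61.0 and 63.1 FPKM in resveratrol, against 72.2, 71.4 and 61.7 FPKM in vehicle. Here vehicle 1 and vehicle 2 were highest and vehicle 3 lay among the resveratrol values (log2 fold change -0.10 ± 0.11). The scaffold Smarcc1 had 15.7, 15.5 and 14.5 FPKM in resveratrol, against 19.0, 19.5 and 13.5 FPKM in vehicle (log2 fold change -0.16 ± 0.14). All 3 resveratrol values stood between vehicle 3 and the other vehicle libraries. Its relative Smarcc2 had 56.8, 59.3 and 62.0 FPKM in resveratrol, against 55.0, 61.3 and 57.0 FPKM in vehicle, with the groups mixed. The other BAF subunits, which are the ATPase Smarca4, the core subunit Smarcb1 and the accessory subunits Smarcd1, Smarcd2 and Smarcd3, had log2 fold changes between -0.09 and 0.03.

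The ARID subunits, which give BAF and its variant PBAF their identity and contact DNA, were lower on average in resveratrol in 3 of 3 cases, with 0 called. Arid1a, the largest of the negative values among them, is described with the deposited calls below. Arid1b, its alternative in BAF, had 8.75, 8.97 and 8.47 FPKM in resveratrol, against 10.1, 12.4 and 6.81 FPKM in vehicle (log2 fold change -0.12 ± 0.19). The resveratrol values fell within a narrow band inside the range of vehicle. Arid2, the PBAF subunit, had 9.13, 8.14 and 7.59 FPKM in resveratrol, against 10.3, 10.1 and 7.03 FPKM in vehicle, in the same arrangement. The ARID proteins outside these complexes gave 5 positive and 1 negative fold change out of 6. Arid5a, an RNA-binding regulator of inflammatory transcripts, had 1.19, 1.16 and 1.78 FPKM in resveratrol, against 1.18, 1.11 and 1.0 FPKM in vehicle (log2 fold change 0.22 ± 0.18). Its mean rested on resveratrol 3. Arid4b, which is part of a histone deacetylase complex, had 27.5, 22.8 and 20.0 FPKM in resveratrol, against 23.5, 21.2 and 22.3 FPKM in vehicle, and the groups overlapped fully.

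No member of the CHD family passed the test, and the groups overlapped for each of them. Chd3, a NuRD motor, had 60.7, 71.2 and 82.7 FPKM in resveratrol, against 67.1, 69.8 and 66.5 FPKM in vehicle (log2 fold change 0.07 ± 0.12). Its spread was wider in resveratrol, with a mean of 71.6 ± 11 FPKM against 67.8 ± 1.76 FPKM in vehicle (SD, n = 3 each). Chd4 had 37.4, 39.1 and 36.6 FPKM in resveratrol, against 42.2, 44.2 and 33.8 FPKM in vehicle, and Chd5, the neuronal form, had 23, 23.6 and 23.6 FPKM in resveratrol, against 22.7, 32.4 and 18.9 FPKM in vehicle. For both, vehicle 2 was highest and vehicle 3 lowest of the 6 libraries. Chd3os had 88.0, 67.8 and 69.5 FPKM in resveratrol, against 64.3, 56.5 and 82.2 FPKM in vehicle (log2 fold change 0.16 ± 0.16). RefSeq (GRCm38.p6) lists Chd3os as an older name of Rnf227 on chromosome 11 from 69340796 to 69342641, a stretch that overlaps Chd3 by 0 bases. Chd2, a remodeller tied to epilepsy when mutated in humans, had 13.8, 14.5 and 12.5 FPKM in resveratrol, against 14.7, 13.6 and 11.7 FPKM in vehicle, and 17.5% of its 50-base words are shared with other genes. Chd6 had 22.2, 21.2 and 19.0 FPKM in resveratrol, against 23.2, 23.6 and 17.9 FPKM in vehicle. The rest of the family, namely Chd1, Chd7, Chd9 and Chd8, which is mutated in some people with autism, had log2 fold changes from -0.18 (Chd7) to 0.01 (Chd9).

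The ISWI motor Smarca5 had 45.3, 38.5 and 36.9 FPKM in resveratrol, against 41.5, 38.8 and 40.0 FPKM in vehicle, with a log2 fold change of -0.0009 ± 0.11. Its neuronal relative Smarca1 differed by -0.05 ± 0.11. Among the remodellers that act in DNA repair and replication, Chd1l had 3.25, 3.70 and 3.71 FPKM in resveratrol, against 3.23, 2.94 and 3.43 FPKM in vehicle (log2 fold change 0.13 ± 0.13). Only resveratrol 1 lay within the range of vehicle. Smarcal1, which restarts stalled replication forks, had 14.1, 15.1 and 14.9 FPKM in resveratrol, against 15.3, 15.5 and 13.2 FPKM in vehicle, and Smarcad1 differed by -0.01 ± 0.12.

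The subunits of the INO80 complex gave 3 positive fold changes, for Ino80, Ino80c and Ino80e, and 2 negative ones, for Ino80b and Ino80d. Ino80e had 8.43, 11.6 and 13.9 FPKM in resveratrol, against 11.1, 10.1 and 11.2 FPKM in vehicle, the widest log2 spread in resveratrol of the coding members (SD 0.35, against 0.08 in vehicle). Ino80d had 5.85, 5.48 and 5.06 FPKM in resveratrol, against 7.58, 8.06 and 3.76 FPKM in vehicle (log2 fold change -0.16 ± 0.24), with vehicle 3 far below the other vehicle libraries. The motor Ino80 differed by 0.01 ± 0.14, Ino80b by -0.05 ± 0.18 and Ino80c by 0.08 ± 0.12. The noncoding Ino80dos, at 1.59 FPKM on average and with a log2 fold change of -0.04 ± 0.21, overlaps Ino80d by 1590 bases on the other strand, and since the use of strand in counting is not given in the sources used here, reads from that overlap cannot be told apart.

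Of the bromodomain proteins, Brd1 was the other member whose groups did not overlap. Brd1, a scaffold of histone acetyltransferase complexes, had 15.8, 15.4 and 15.2 FPKM in resveratrol, against 14, 14.7 and 14.8 FPKM in vehicle. The gap between the groups was small and so was the spread within each, with means of 15.5 ± 0.329 FPKM in resveratrol and 14.5 ± 0.420 FPKM in vehicle (SD, n = 3 each), a log2 fold change of 0.09 ± 0.10 (SE; limma adjusted p = 0.987). Together Smarce1 and Brd1 make 4.26% of the members, against 6.28% of all genes tested whose groups did not overlap. Both were higher in resveratrol, and 4.28% of all genes did not overlap in that direction, so the share of members is near the background. Brd9, a subunit of the non-canonical BAF complex, had 28.3, 26.1 and 26.7 FPKM in resveratrol, against 23.4, 25.0 and 28.6 FPKM in vehicle. Brd7 of PBAF and Brd8 of the TIP60 acetyltransferase complex differed by -0.02 ± 0.10 and 0.10 ± 0.10.

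The BET proteins Brd2 and Brd3 differed in the spread of their values over the vehicle mice, with a log2 SD of 0.05 for Brd2 and 0.39 for Brd3. Brd2 had 33.5, 36.6 and 36.3 FPKM in resveratrol, against 34.7, 36.6 and 34.2 FPKM in vehicle, and so was steady across all 6 mice. Brd3 had 6.13, 6.24 and 5.46 FPKM in resveratrol, against 7.52, 9.87 and 5.53 FPKM in vehicle (log2 fold change -0.30 ± 0.18). Vehicle 1 and vehicle 2 lay above every resveratrol library and vehicle 3 lay among them. The ratio of Brd2 to Brd3 was 5.46, 5.88 and 6.65 in resveratrol, against 4.62, 3.71 and 6.18 in vehicle.

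The authors' deposited table holds its own comparison, and in it 3 members had a q under 0.05, all of them lower in resveratrol. They make 6.38% of the 47 members, against 0.633% of all 13582 rows called lower in the authors' deposited table, 0.11% called higher and 0.744% in both directions together. Among them were Arid1a (log2 fold change -0.63, q = 0.0115) and Smarca5-ps (-0.82, q = 0.0184), both values of the authors' deposited table. The limma fit on the same FPKM called 0 members. Arid1a, on chromosome 4 from 133679008 to 133756769 (GRCm38, minus strand), had 6.93, 6.54 and 5.96 FPKM in resveratrol, against 9.99, 14.9 and 5.26 FPKM in vehicle. Vehicle 1 and vehicle 2 lay above every resveratrol library, and vehicle 3 below them all. The means were 6.48 ± 0.488 FPKM in resveratrol and 10.0 ± 4.80 FPKM in vehicle (SD, n = 3 each), a log2 fold change of -0.49 ± 0.29 (SE; limma adjusted p = 0.987). Of the 99 rows with q under 0.05 in the authors' deposited table that entered limma, 15 (15.2%) had groups that did not overlap, against 6.28% of all genes tested.

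Smarca5-ps, a transcribed processed copy of the ISWI motor on chromosome 4 from 145464204 to 145467420 (plus strand), took the opposite course among the vehicle mice. It had 1.12, 1.47 and 2.38 FPKM in resveratrol, against 3.27, 1.85 and 3.64 FPKM in vehicle. Resveratrol 3 stood above vehicle 2, so the groups overlapped, and vehicle 3 was highest. The means were 1.66 ± 0.648 FPKM in resveratrol and 2.92 ± 0.946 FPKM in vehicle (SD, n = 3 each), a log2 fold change of -0.67 ± 0.26 (SE; limma adjusted p = 0.987, unadjusted p = 0.0298). The row is uncertain, because the pseudogene is nearly identical to its parent. Over 3113 aligned bases its transcript matched the coding sequence of Smarca5 at 98.1% of positions. Of its 50-base words, 62.3% occur in transcripts of other genes, and 38.2% in those of Smarca5. A 60-base window with 1 mismatch, the rate over the whole alignment, is shown from GENCODE M21 (GRCm38) to show how few bases part the 2 rows, and the capital marks the mismatch. It covers bases 151 to 210 of the Smarca5 coding sequence and bases 125 to 184 of the pseudogene transcript.
Smarca5: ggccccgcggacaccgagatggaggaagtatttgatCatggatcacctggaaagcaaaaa
Smarca5-ps: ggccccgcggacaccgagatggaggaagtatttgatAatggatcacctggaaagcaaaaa
Reads from either gene that cover no mismatched base are alike in both and can be counted to the other. Smarca5 stood at 40.2 FPKM on average and Smarca5-ps at 2.29 FPKM.

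**Figure D3:**
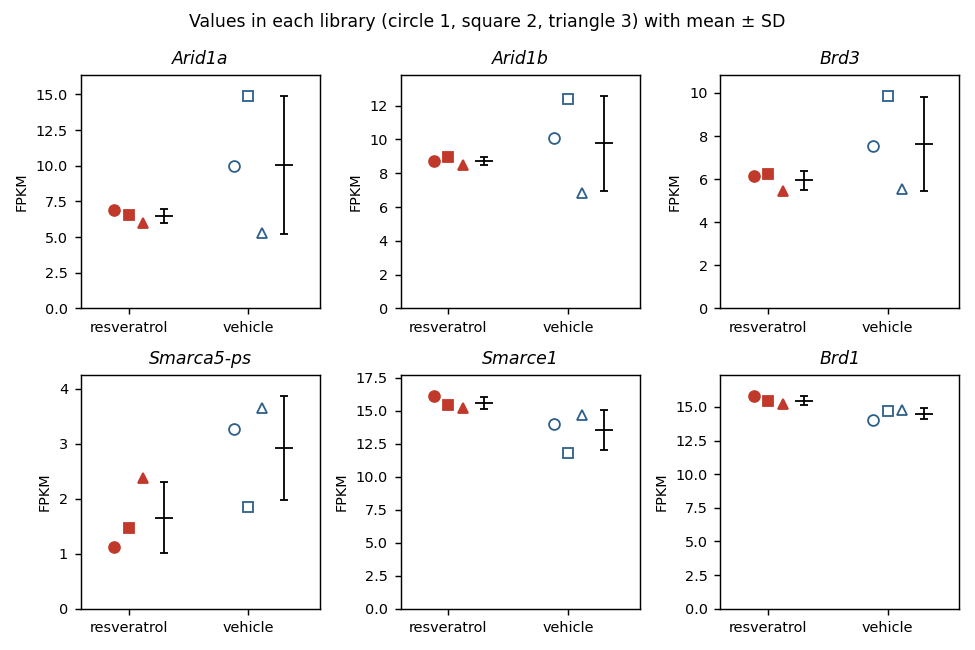
FPKM in each library for Arid1a, Arid1b, Brd3, Smarca5-ps, Smarce1 and Brd1, with filled symbols for resveratrol, open symbols for vehicle (circle, square and triangle for replicates 1, 2 and 3) and a bar for the mean ± SD (n = 3 each). In Arid1a, Arid1b and Brd3 the vehicle 2 square is the highest symbol, the vehicle 3 triangle lies at or under the level of the resveratrol libraries, and in Smarce1 and Brd1 all filled symbols lie above all open ones.

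The promoters of 3 members are shown because 2 of them, Arid1a and Brd3, shared the high values in vehicle 1 and vehicle 2, while Brd1 was steady. Each is the window around the transcription start from RefSeq (GRCm38.p6), in which 33 of the 47 members were found. Smarce1 was not among those. Capitals mark the GC box GGGCGG, searched on both strands with overlapping matches counted. The windows are chr4:133756720-133757019 for Arid1a, the first of its 2 start sites, chr2:27475349-27475648 for Brd3 and chr15:88734170-88734469 for Brd1, all on the minus strand.
Arid1a: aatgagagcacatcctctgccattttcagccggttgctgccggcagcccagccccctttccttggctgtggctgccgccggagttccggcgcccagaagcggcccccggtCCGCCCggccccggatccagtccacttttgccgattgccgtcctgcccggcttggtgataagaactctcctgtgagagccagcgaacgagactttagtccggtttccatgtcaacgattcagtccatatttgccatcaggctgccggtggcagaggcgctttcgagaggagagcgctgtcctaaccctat
Brd3: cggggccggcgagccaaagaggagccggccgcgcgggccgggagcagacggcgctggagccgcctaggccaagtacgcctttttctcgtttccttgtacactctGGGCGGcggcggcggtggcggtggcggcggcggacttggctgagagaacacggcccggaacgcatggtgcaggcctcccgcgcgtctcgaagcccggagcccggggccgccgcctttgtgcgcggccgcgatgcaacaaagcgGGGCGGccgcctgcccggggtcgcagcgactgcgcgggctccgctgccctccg
Brd1: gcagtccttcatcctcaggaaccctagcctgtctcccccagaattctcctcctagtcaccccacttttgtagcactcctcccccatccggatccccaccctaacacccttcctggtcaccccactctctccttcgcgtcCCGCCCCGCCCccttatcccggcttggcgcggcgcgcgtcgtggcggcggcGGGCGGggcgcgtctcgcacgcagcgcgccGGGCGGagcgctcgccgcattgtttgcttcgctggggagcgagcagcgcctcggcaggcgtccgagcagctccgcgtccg
The GC content of these windows was 61.3%, 75.0% and 70.0%, with 22, 46 and 36 CpG dinucleotides and 1, 2 and 4 GC boxes. The window of the second start site of Arid1a, not printed, had 79.7% GC, 36 CpG dinucleotides and 7 GC boxes, the most of these 4 windows. Neither CCAAT nor TATAAA occurred on either strand in any of the 4. Over 44 windows of 33 members, 77.3% held a GC box, against 35.7% of all 32851 RefSeq windows, and 4.5% held TATAAA, against 13.6%. Those 32851 windows were not limited to genes expressed in these libraries, as the members are. Shares over expressed genes alone were not computed. The median GC content was 65.7% for members' windows and 52.7% for all windows, with medians of 25 and 7 CpG dinucleotides. The motif was present in the steady Brd1 and in the variable Arid1a and Brd3.

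The members varied more among the vehicle mice than among the resveratrol mice. The median SD on the log2 scale was 0.11 over the 3 resveratrol libraries and 0.18 over the 3 vehicle libraries, against 0.13 and 0.17 for all genes tested. The SD was larger in vehicle for 34 of 47 members (72.3%), against 61.4% of all genes. A log2 SD above 0.3 was found for 2 members in resveratrol (4.26%, against 7.67% of all genes) and for 10 in vehicle (21.3%, against 18.2%), among them Arid1a (0.71), Ino80d (0.56), Smarca5-ps (0.44), Arid1b (0.42), Brd3 (0.39) and Chd5 (0.39). In 19 members (40.4%) vehicle 2 was above vehicle 1 and vehicle 1 above vehicle 3, against 24.7% of all genes. Vehicle 2 was above vehicle 3 in 30 members (63.8%), against 48.5% of all genes. In 18 members (38.3%) all resveratrol values lay between the lowest and the highest vehicle value, against 30.5% of all genes. Vehicle 3 was the lowest of the 6 libraries for 20 members (42.6%, against 20.8% of all genes), and vehicle 2 the highest for 18 (38.3%, against 22.4%). The mean deviation of the 47 members from their own means was -0.02, -0.01 and -0.04 on the log2 scale in resveratrol 1, 2 and 3, against 0.04, 0.13 and -0.11 in vehicle 1, 2 and 3.

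This spread moved with transcript length. The members are long, with a median of 5462 bases for the longest annotated transcript over the 46 members with a length, against 3463 over 13021 genes tested. Among the 44 coding members the log2 difference of vehicle 2 over vehicle 3 had a Spearman correlation with length of 0.64, against 0.52 over all genes with a length. The points share the same libraries and are not replicates, so this is a description. In the 22 longer members (5773 to 13675 bases) the median difference of vehicle 2 over vehicle 3 was 0.45 on the log2 scale and vehicle 2 was above vehicle 3 in 20. In the 22 shorter members (1503 to 5504 bases) it was -0.01, with vehicle 2 above in 9. The fold change of resveratrol over vehicle followed the same division. Of the longer members 7 were above 0 and 15 below (median -0.07), against 15 above and 7 below for the shorter ones (median 0.03). The Spearman correlation of this fold change with length was -0.46 for the coding members and -0.31 over all genes with a length. This relation is therefore not particular to the members. With GC content the correlation of the vehicle difference was 0.29 for the coding members and 0.05 for all genes.

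**Figure D4:**
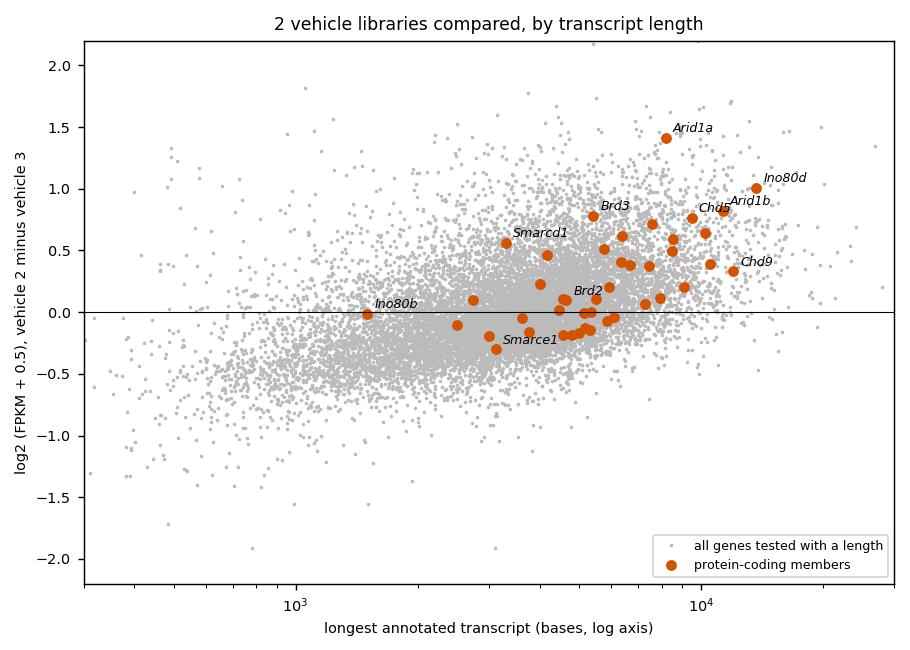
Log2 (FPKM + 0.5) of vehicle 2 minus vehicle 3 against the length of the longest annotated transcript on a log axis, with grey points for 13020 genes tested (21 of them outside the axes) and orange points for 43 of the 44 coding members. Longer members such as Arid1a, Ino80d and Arid1b lie above 0, and most of the shorter ones lie near or under it.

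After a loess correction of every library for length and GC content, the mean deviation of the members was 0.04, 0.02 and -0.01 in vehicle 1, 2 and 3. In resveratrol 1, 2 and 3 it was -0.02, -0.01 and -0.02. The correction takes out each library's trend with length and GC content, so smaller deviations of long genes are built into it. Arid1a and Brd3 had log2 fold changes of -0.42 and -0.29 after the correction. For these genes the value moved with the libraries used, as it must with vehicle 2 highest and vehicle 3 lowest among vehicle. Without vehicle 2 the log2 fold changes of Arid1a and Brd3 were -0.16 and -0.11, and without vehicle 3 they were -0.87 and -0.50. With vehicle 1 and vehicle 2 both left out, so that vehicle 3 stood alone, they were 0.27 and 0.09. Smarca5-ps was negative in each of these fits, at -0.92 without vehicle 2, -0.51 without vehicle 3, -0.98 with both vehicle 1 and vehicle 2 left out and -0.67 after the correction. Over the 47 members, 32 were above 0 without vehicle 2, 18 without vehicle 3 and 36 with vehicle 1 and vehicle 2 left out. The medians of the members were 0.04, -0.05 and 0.08 in these fits, against 0.02, 0.03 and 0.02 over all genes tested. Without vehicle 2 and without vehicle 3, 0 members were called.

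**Figure D5:**
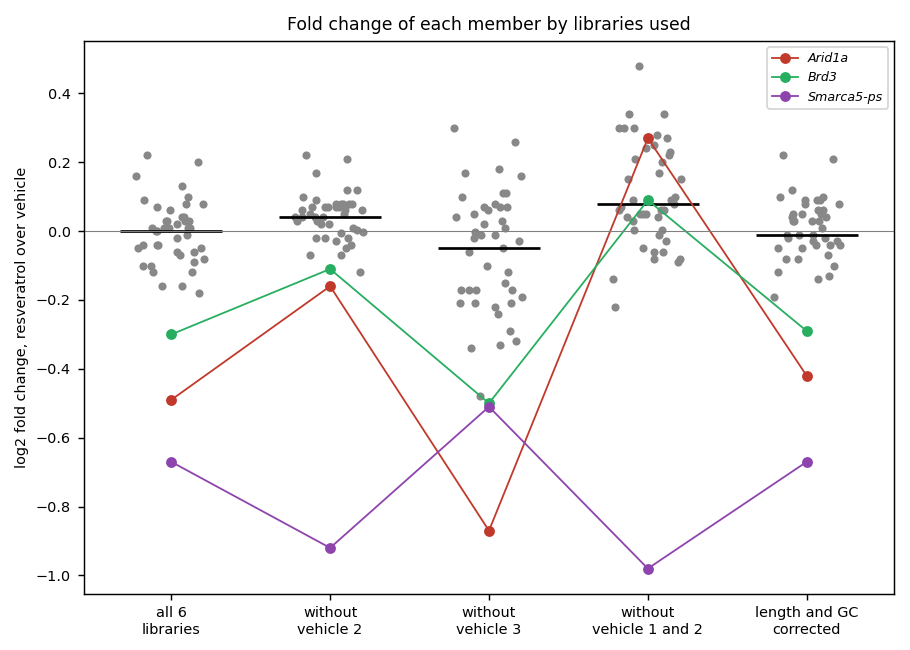
Log2 fold change of resveratrol over vehicle for each member with all 6 libraries, without vehicle 2, without vehicle 3, without vehicle 1 and 2, and after length and GC correction. Points are 46 of the 47 members, bars the medians of all 47 (of 46 after the correction, where Chd3os has no length and is not plotted) and coloured lines 3 members by name. Arid1a and Brd3 move from -0.87 and -0.50 without vehicle 3 to 0.27 and 0.09 without vehicle 1 and 2.

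Other genes of the same complexes were taken from 7 lists of partners, and 0 of the 99 tested were called in either direction (smallest limma adjusted p 0.987). Of these 56 were above 0 and 43 below. Their median on the log2 scale was 0.01, and 6 (6.06%) had groups that did not overlap, against 6.28% of all genes tested. Among 16 partners of BAF 8 were above 0 and 8 below. Dpf1, a neuronal BAF subunit that reads histone tails, had 12, 12.9 and 13.6 FPKM in resveratrol, against 10.2, 11.6 and 10.5 FPKM in vehicle (log2 fold change 0.24 ± 0.11), with no overlap. The partner Gltscr1 of the non-canonical complex differed by -0.41 ± 0.21. Of 12 NuRD partners 8 were above 0 and 4 below, with Mta2 at 0.17 ± 0.11. The NuRD zinc finger subunit Gatad2b had 13.3, 14 and 13.8 FPKM in resveratrol, against 18.2, 23.8 and 11.4 FPKM in vehicle, so it shared the vehicle order of Arid1a. Of 10 ISWI partners 4 were above 0 and 6 below, among them Chrac1 (0.22 ± 0.17) and Bptf, the reader subunit of the NURF complex (-0.16 ± 0.19).

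Partners of INO80 and of the related SRCAP and TIP60 complexes gave 16 fold changes above 0 and 8 below. Znhit1, which helps to deposit the histone variant H2A.Z, had 25.3, 27.6 and 37.4 FPKM in resveratrol, against 19.5, 20.0 and 27.9 FPKM in vehicle (log2 fold change 0.41 ± 0.18), and Tfpt differed by 0.30 ± 0.15. In the list of BET partners 6 of 9 were above 0. Jmjd6, a hydroxylase known as a partner of BET proteins, had 14.5, 13.6 and 16.3 FPKM in resveratrol, against 10.5, 10.1 and 12.4 FPKM in vehicle. Its groups did not overlap, and its log2 fold change was 0.41 ± 0.12 (SE, n = 3 each; limma adjusted p = 0.987, unadjusted p = 0.00731). Over all partner lists, 2 of 99 genes had an unadjusted limma p under 0.05, against 2.42% of all genes tested. Ccnt1, the cyclin of the elongation factor P-TEFb, differed by 0.18 ± 0.12. Of 20 bromodomain genes under other symbols 9 were above 0 and 11 below. The acetyltransferase Crebbp had 16.6, 15.3 and 13.9 FPKM in resveratrol, against 22.2, 29.6 and 12.3 FPKM in vehicle, and its relative Ep300 had 9.12, 8.34 and 7.25 FPKM in resveratrol, against 12.5, 16.0 and 6.29 FPKM in vehicle. Both repeated the order of Arid1a, with vehicle 2 highest and vehicle 3 lowest of the 6. Of 8 SNF2 ATPases under other symbols 5 were above 0 and 3 below, with Hells at -0.26 ± 0.18 and Zranb3 at -0.15 ± 0.15.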

How the data were processed

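RNA was sequenced from 6 libraries, 3 per group, prepared with a kit that keeps strand and removes ribosomal RNA, per the labels' protocols. Groups come from the sample titles. The libraries are taken as separate mice from the design text. The submitters' processing notes name STAR, Cufflinks and Cuffdiff and the build GRCm38, and give neither versions nor roles. The deposited values are FPKM, computed by the authors, per the file headers. Beside these the authors deposited log2 values of each group, their log2 fold change, a p-value and a q-value, per the file headers. Gene positions in the table overlapped the like-named GENCODE gene in 8 of the 46 members with one, and in 15.2% of all rows with one. Most deposited positions thus do not match the named build, and the reason was not tested. Positions printed are those of GENCODE M21 or RefSeq. No counts are given. Low values of genes with 1 transcript were within 0.1 of whole multiples of a step in 32.1% to 44.4% at the best of many steps, where 1 step gives 20% by chance, so depth was not recovered and no counting interval is given.

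Genes were tested with limma 3.58.1 (R 4.3.3), with an intensity trend, on log2(FPKM + 0.5), and the 13574 genes that averaged 0.5 FPKM or more were kept. Fold changes on this scale understate the change of low genes. P-values are two-sided and adjusted over all genes tested. The 2 genes with a failed value were left out of the test. The script was tested on simulated data. Transcript length and GC content are those of the longest GENCODE M21 transcript. Shared sequence is the share of 50-base words found in other genes. The members, lists and partner genes were chosen with earlier results of these data known. Named members are the highest of each role group, the 5 with the smallest p in each direction and those without overlap. Of each partner list the 2 genes with the smallest p are named. The other members, and Gatad2b's and Crebbp's comparison with Arid1a, were described after their values were seen. The values of 1 member are not reported here on their own, though counts and medians include it. Replicate numbers were not taken to pair the samples.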

Additional observations from a re-analysis of the deposited data

How the results depend on the processing

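Of 338 values of 20 named members under 17 other settings, 293 kept their direction and side of the threshold, 38 changed direction and 7 newly passed it, all 7 with sample weights. Those weights (9.20 for resveratrol 2 and 5.02 for vehicle 1, 0.227 to 0.556 for the others) came from an estimate that stopped before it converged and nearly reduce the comparison to 2 libraries. They gave 4927 of 13574 genes, 13 of 47 members and 43 of 99 partner genes called. They turned Arid4b (-0.03), Chd2 (-0.01) and Smarcal1 (-0.01). In the other settings 0 members and 0 partner genes were called. The number of members without overlap was 1 with median centring (5.3% of all genes) and 1 with length and GC correction (8.95%), and 3 to 20 with 1 library left out. It was 8 without resveratrol 1 (17.1% of all genes tested), 3 without resveratrol 2 (11.5%) and 5 without resveratrol 3 (12.4%). Without vehicle 1, vehicle 2 or vehicle 3 it was, in that order, 3 (9.27%), 6 (14.7%) and 20 (37.2%). With vehicle 1 and vehicle 2 left out, 26 members did not overlap (47.1% of all genes), 36 were above 0, the median was 0.08 and 3 genes of the whole table were called. There the lone vehicle library is assumed to vary like the others. Called genes of the whole table numbered 1 to 7 with 1 library left out, with 3 without vehicle 2 and 7 without vehicle 3. The median of the members ranged from -0.05 to 0.04.

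With vehicle 1 and vehicle 2 left out, directions turned for Arid1a (0.27), Arid1b (0.34), Brd3 (0.09), Brd9 (-0.08), Chd3os (-0.14), Chd6 (0.21), Ino80e (-0.01), Smarca2 (0.04), Smarca5 (0.002) and Smarcc1 (0.17). Length and GC correction turned Brd2 (-0.01), Chd6 (0.03), Smarca5 (0.03) and Smarcal1 (-0.01). Median centring turned Brd2 (-0.02) and Smarcal1 (-0.01), and quantile normalization turned Brd2 (-0.01) and Smarcal1 (-0.01). With 1 library left out, the ranges that crossed 0 were -0.06 to 0.16 for Arid4b, -0.34 to 0.07 for Arid1b, -0.01 to 0.05 for Brd2, -0.05 to 0.10 for Chd2, -0.09 to 0.06 for Smarca5, -0.06 to 0.05 for Smarcal1, -0.17 to 0.03 for Chd6 and -0.12 to 0.23 for Ino80e. The cause was not tested. The replicate number as a block changed no call: 1 gene of the whole table and 0 members were called. The deviations of same-numbered libraries from their group means correlated at 0.038, 0.148 and 0.184 across genes. Libraries of unlike number gave -0.304 to 0.262, so the numbers were not taken to pair mice.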

Other observations

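Brdt, the BET gene known from male germ cells, is not among the members but was listed at 3.06, 2.45 and 2.15 FPKM in resveratrol 1, 2 and 3, against 2.52, 2.60 and 2.90 FPKM in vehicle 1, 2 and 3. Its level differed by -0.06 ± 0.15 on the log2 scale (SE, n = 3 each; limma adjusted p = 0.987), and 0% of its 50-base words occur in transcripts of other genes.

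Among partners without overlap between the groups, Trim24, a bromodomain cofactor of nuclear receptors, had 9.05, 8.87 and 8.38 FPKM in resveratrol, against 10.4, 9.69 and 9.08 FPKM in vehicle. Hexim1, an inhibitor of P-TEFb, had 14.3, 13.5 and 14.6 FPKM in resveratrol, against 13, 13.2 and 12.7 FPKM in vehicle. Both were picked after their values were seen, and neither passed the adjusted threshold of limma (adjusted p = 0.987).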
